A study of Mus musculus with 2 samples.

Results

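The genes described here encode NRF2, its inhibitor KEAP1 and the enzymes that make or use glutathione, thioredoxin and NADPH, together with superoxide dismutases, catalase, haem oxygenase, ferritins and metallothioneins. The members were chosen by name, as the microarray probes other than controls that carry 1 of 42 gene symbols. All 42 symbols were found among the 37073 gene names on the array, on 73 probes. MCMs, a mouse cardiomyocyte culture from a commercial supplier, were passaged and grown with a low share of serum. The array study holds 1 culture that received siRNA-NC, the non-targeting siRNA, called the control culture below, and 1 that received siRNA-*Ppp2r5d*, called the knockdown culture, both with Lipofectamine RNAiMAX. Both cultures were moved to glucose-free medium at 48 h after transfection and were collected at 64 h, and the labels name neither ISO nor hydrogen peroxide for them. With 1 array per condition no difference has a replicate check, no test was possible, and what the siRNA did cannot be told apart from other ways in which the cultures differed.

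NRF2 is a transcription factor whose protein is held by KEAP1 and handed over for degradation. Oxidants and electrophiles modify cysteines of KEAP1, NRF2 then accumulates, pairs with small MAF proteins and binds antioxidant response elements in its target genes. These targets supply glutathione, reduced thioredoxin, NADPH and the enzymes that remove peroxides, quinones and free iron, which cardiomyocytes need because their mitochondria release superoxide. Much of the control of NRF2 lies in its protein, which an RNA array does not measure.

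The targeted gene was checked first. *Ppp2r5d*, a regulatory B subunit of protein phosphatase 2A, had an intensity of 4701 in the control culture and 676 in the knockdown culture. After each array was divided by its 75th percentile, this was a log2 fold change of -2.60, or 6.08-fold lower. The 75th percentile itself was an intensity of 593 on the control array and 519 on the knockdown array, so equal intensities on both arrays stand for a log2 fold change of 0.19. Both arrays measured 20350 genes above background, whose log2 fold change had a median of 0.026. A gene well above background on 1 array could have a bound, a limit on its change. In all, 21674 genes had a value or a bound. Of 16 cardiomyocyte markers, 10 were measured on both arrays with a median log2 fold change of 0.45. *Myh6* and *Ryr2* were well above background on 1 array and had a bound. *Actn2*, *Myl2*, *Myl7* and *Pln* had neither a value nor a bound. By sign, 8 of the 10 were higher and 2 lower. Several of the measured ones were dim in the control culture, such as *Nppa* at 16.6, *Nppb* at 17.1, *Csrp3* at 37.7 and *Myl3* at 40.4. Their log2 fold changes were 0.62, 0.68, 1.93 and 0.90, in that order. *Tnni3* at 45.0 and *Myh7* at 48.1, also dim, had values of -0.19 and 0.024. *Actc1* at 6443, *Nkx2-5* at 1078 and *Tnnt2* at 858 were brighter, with log2 fold changes of -0.098, 0.086 and 0.42. Of 10 fibroblast markers, 8 were measured with a median of 0.036, and *Vim* had intensities of 53438 and 52775. In the control culture *Dcn* was at 10877, *Col1a1* at 7339 and *Pdgfra* at 110, while *Tcf21* and *Thy1* had neither a value nor a bound. The 5 smooth muscle markers had a median of -0.02, with *Cnn1* at 2.41, *Tagln* at 0.85, *Acta2* at -0.02, *Smtn* at -0.11 and *Myh11* at -0.38. The values farthest from 0 in the cardiomyocyte, fibroblast and leukocyte lists were 1.93 for *Csrp3*, 1.08 for *Lum* and -0.77 for *Cd68*. Of 6 endothelial markers, *Pecam1* alone was measured on both arrays, at -0.23. Of 6 leukocyte markers, 4 were measured, with a median of 0.032. The part of these markers in the results was not tested, and in bulk RNA fewer cells of a type and less RNA per cell cannot be told apart.

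Most of the antioxidant genes had close to the same level in both cultures. Of the 42 genes, 40 stood well above background on both arrays, *Gpx3* in the control culture alone, and *Gpx7* in neither. Among the 40 genes, 38 differed by less than 1.5-fold, which is 95% of them against 92% of all measured genes. The median log2 fold change was 0.15, with quartiles of -0.041 and 0.25. By sign, 29 genes were higher and 11 lower in the knockdown culture, where 54.2% of all measured genes were higher. This balance followed the scaling between the arrays, since it was 24 higher and 16 lower after cyclic loess and 16 higher and 24 lower when the arrays were scaled to spike-in probes, which also moved the median of all genes to -0.15.

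None of the genes was 2-fold higher, whereas 1.08% of all genes were. *Gstm2* and *Gpx3* were at least 2-fold lower, against 1.46% of all genes. The 2 genes are 4.88% of the 41 genes with a value or a bound, and 2.53% of all genes passed 2-fold in either direction. At 1.5-fold, *Taldo1* was the only gene higher, where 3.87% of all genes were higher, and the same *Gstm2* and *Gpx3* were lower, where 5.41% of all genes were lower. The share past 1.5-fold was thus 7.32% of these genes against a background of 9.28%.

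**Figure D1:**
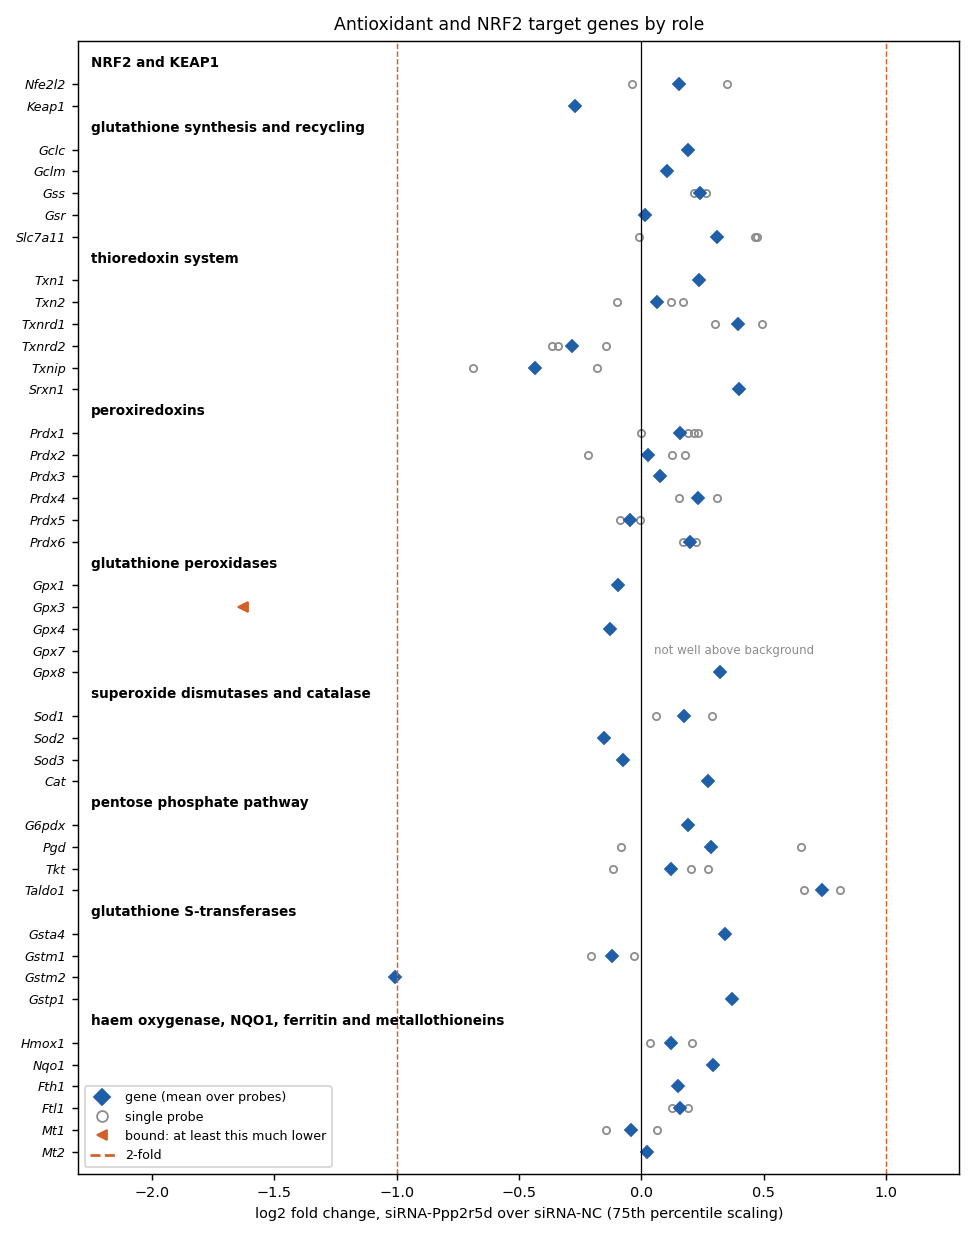
The log2 fold change of each gene on the x axis, siRNA-*Ppp2r5d* over siRNA-NC after 75th percentile scaling, with the genes grouped by role. Diamonds are genes, open circles their single probes, the triangle is the bound for *Gpx3*, and dashed lines mark 2-fold. *Gstm2* and *Gpx3* lie at or past the line for 2-fold lower, *Taldo1* is the gene farthest to the right at 0.74, and signs near 0 depend on the scaling.

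*Gstm2*, a mu-class glutathione S-transferase that couples glutathione to electrophiles, was measured by 1 probe. Its intensity was 6773 in the control culture and 2952 in the knockdown culture, a log2 fold change of -1.01, or 2.01-fold lower. The value lay between -1.18 and -0.98 over 7 ways of scaling the arrays, so the direction was kept while the gene stood on either side of the 2-fold line. Set base by base against the 10 probes of other *Gstm* genes without gaps, the *Gstm2* probe had at most 29 of 60 bases in common, and binding by RNA of related genes was not analysed here. *Gpx3*, the secreted glutathione peroxidase, was near the detection limit. It had an intensity of 47.6 in the control culture and 9.23 in the knockdown culture, where it was not well above background. Against the lowest signal well above background on that array, 13.5, *Gpx3* was at least 3.09-fold lower, a log2 value of -1.63. With normexp background correction this value was -0.46, below 1.5-fold. *Taldo1*, transaldolase of the pentose phosphate pathway, was higher on both of its probes. The intensities were 34395 and 47706 on the first probe and 5481 and 8426 on the second, with log2 fold changes of 0.66 and 0.81. The mean of 0.74, or 1.67-fold higher, ranged from 0.56 to 0.77 over the scalings, and only the lowest of these, with spike-in probes, fell below 1.5-fold.

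The probes behind these 3 genes are shown because the values rest on them. Each line has the first 30 of 60 bases, in the 5′ to 3′ direction as the array's files give them, with mm9 coordinates of the whole probe. Whether a probe lies in coding sequence or in an untranslated region was not analysed here.
*Gstm2*, chr3:107784622-107784681, minus strand: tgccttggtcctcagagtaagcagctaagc
*Gpx3*, chr11:54723436-54723495, plus strand: ttttttcagctttctgttccaaatgagccc
*Taldo1* first probe, chr7:148588764-148588823, plus strand: acgaatgaatcttgcattttttagtgatcg
*Taldo1* second probe, chr7:148587650-148587824, plus strand, an interval of 175 bases: accctggggtcaagagtgtcaccaaaatct

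The regulators themselves differed little. *Nfe2l2*, which encodes NRF2, had intensities of 11004 and 9380 on 1 probe and of 2645 and 2949 on the other, with log2 fold changes of -0.04 and 0.35. The mean of 0.16 ranged from -0.02 to 0.18 over the scalings, so neither the probes nor the scalings gave *Nfe2l2* a common direction. *Keap1* had an intensity of 2988 in the control culture and 2168 in the knockdown culture, a log2 fold change of -0.27, and lay between -0.45 and -0.24 over the scalings.

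For making and recycling glutathione, the median of the genes was 0.19 on the log2 scale, and all 5 had a positive value, although *Gclm* and *Gsr* turned sign with the scaling. *Slc7a11*, the cystine and glutamate exchanger, had an intensity of 697 in the control culture and 756 in the knockdown culture. Its log2 fold change was 0.31, with probes from -0.01 to 0.47. *Gclc*, the catalytic subunit of glutamate-cysteine ligase, had intensities of 6093 and 6083, a log2 fold change of 0.19. *Gclm*, the modifier subunit of that enzyme, had intensities of 5693 and 5358, a log2 fold change of 0.11. Both subunits thus had nearly the same intensity on the 2 arrays. *Gss*, glutathione synthetase, had a log2 fold change of 0.24, and *Gsr*, which returns oxidized glutathione to its reduced form, of 0.014.

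In the thioredoxin system the values ran from -0.43 to 0.40. *Srxn1*, sulfiredoxin, which repairs overoxidized peroxiredoxins, had an intensity of 22679 in the control culture and 26200 in the knockdown culture, a log2 fold change of 0.40 that ranged from 0.22 to 0.43 over the scalings. *Txnrd1*, the cytosolic thioredoxin reductase, had intensities of 7678 and 8842. Its log2 fold change was also 0.40, with probes at 0.30 and 0.49 and a range of 0.22 to 0.42 over the scalings. Both are classical NRF2 targets and had the highest values of this group, below 1.5-fold. *Txnip*, which binds and inhibits thioredoxin and responds to glucose, had the lowest value, -0.43. Its dimmer probe went from 42.1 to 22.9, a log2 fold change of -0.69, and its brighter probe from 744 to 574, a value of -0.18. *Txnrd2*, the mitochondrial reductase, was at -0.28, with probes from -0.37 to -0.14. *Txnip* and *Txnrd2* were negative under all 7 scalings. The cytosolic thioredoxin *Txn1* was at 0.24 and the mitochondrial *Txn2* at 0.065, and *Txn2* turned sign with the scaling.

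Of the enzymes that remove peroxides and superoxide, *Gpx3*, described above, was the only one past 1.5-fold. The 6 peroxiredoxins, which reduce hydrogen peroxide with electrons from thioredoxin, ranged from -0.046 for *Prdx5* to 0.23 for *Prdx4*, with a median of 0.12. *Prdx1*, *Prdx2* and *Prdx3* turned sign with the scaling. The bright *Prdx2* probes were at 0.13 and 0.18. Its dim probe, with intensities of 42.3 and 31.8 and placed by the files on the opposite strand, was at -0.22. Of the glutathione peroxidases, *Gpx1* was at -0.097 and *Gpx4*, which reduces lipid peroxides, at -0.13, both negative under all scalings. *Gpx8* of the endoplasmic reticulum was at 0.32. *Gpx7* had intensities of 3.02 and 2.73, not well above background on either array. Cytosolic *Sod1* was at 0.17 and turned sign with the scaling, mitochondrial *Sod2* was at -0.15, secreted *Sod3* at -0.076 and catalase, *Cat*, at 0.27.

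The 4 genes of the pentose phosphate pathway, the main cytosolic source of NADPH, had a median of 0.24. Beside *Taldo1*, *Pgd* was at 0.28, *G6pdx*, the entry enzyme, at 0.19, and *Tkt*, transketolase, at 0.12, and *Tkt* turned sign with the scaling. The bright *Pgd* probe, at 20498 in the control culture, gave 0.28, and its dim probes, at 78.2 and 21.8, gave -0.084 and 0.65. For *Tkt* the bright probe, at 14686 in the control culture, gave 0.27, and the dim probes, at 44.5 and 20.2, gave -0.11 and 0.20. Among the glutathione S-transferases, *Gstp1* was at 0.37, *Gsta4* at 0.34 and *Gstm1* at -0.12, beside *Gstm2*. The second of the *Gstm1* probes is placed by the files on chromosome 5, away from the first on chromosome 3.

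*Hmox1* and *Nqo1*, which are used most as readouts of NRF2, did not pass 1.5-fold. *Hmox1*, haem oxygenase, had an intensity of 49037 in the control culture and 49601 in the knockdown culture on its brighter probe, and of 189 and 170 on the other. The log2 fold change was 0.21 on the brighter probe and 0.037 on the dim one. Their mean of 0.12 turned sign with the scaling, from -0.053 to 0.15. *Nqo1*, a quinone reductase, had intensities of 3921 and 4207, a log2 fold change of 0.29 that ranged from 0.12 to 0.32. The ferritin chains *Fth1* and *Ftl1* were at 0.15 and 0.16, and the metallothioneins *Mt1* and *Mt2* at -0.04 and 0.022. Of these 4, *Mt1* alone kept its sign over the scalings. Its probes differed in sign, at 0.064 on the brighter and -0.14 on the dimmer.

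**Figure D2:**
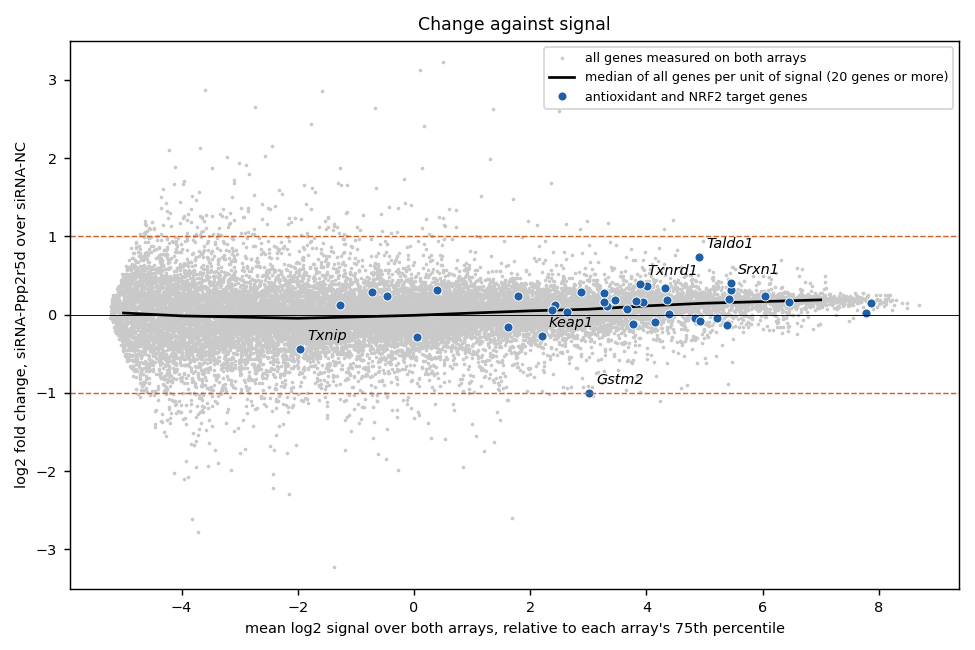
Each grey point is 1 of 20350 genes measured on both arrays, with its mean log2 signal relative to the 75th percentile on the x axis and its log2 fold change on the y axis. Blue points are the antioxidant genes, the black line is the median of all genes per unit of signal, and dashed lines mark 2-fold. Most blue points lie at high signal, where the black line is above 0.

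Most of the antioxidant genes were bright, and over all genes the bright ones had a higher median log2 fold change than the rest. On the scale of log2 over the 75th percentile, 32 of the 40 genes had a mean signal of at least 2, and the median of their log2 fold changes was 0.15. The median of all 4498 genes with such signal was 0.11, and those with lower signal were at a median of -0.011. The other 8 antioxidant genes had a median of 0.18. *Pgd*, *Tkt* and *Prdx4* were among them although each has a bright probe, because dim probes lowered their mean signal. Cyclic loess, which removes a trend of change with signal, gave the 40 genes a median of 0.063 and all genes a median of 0.0048. The log2 fold change varied between spots of 1 probe by a median SD of 0.039, taken over 154 probes that have at least 10 spots, and the error estimate of the scanner software for a single probe of these genes had a median of 0.20. Neither covers the spread between cultures.

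**Figure D3:**
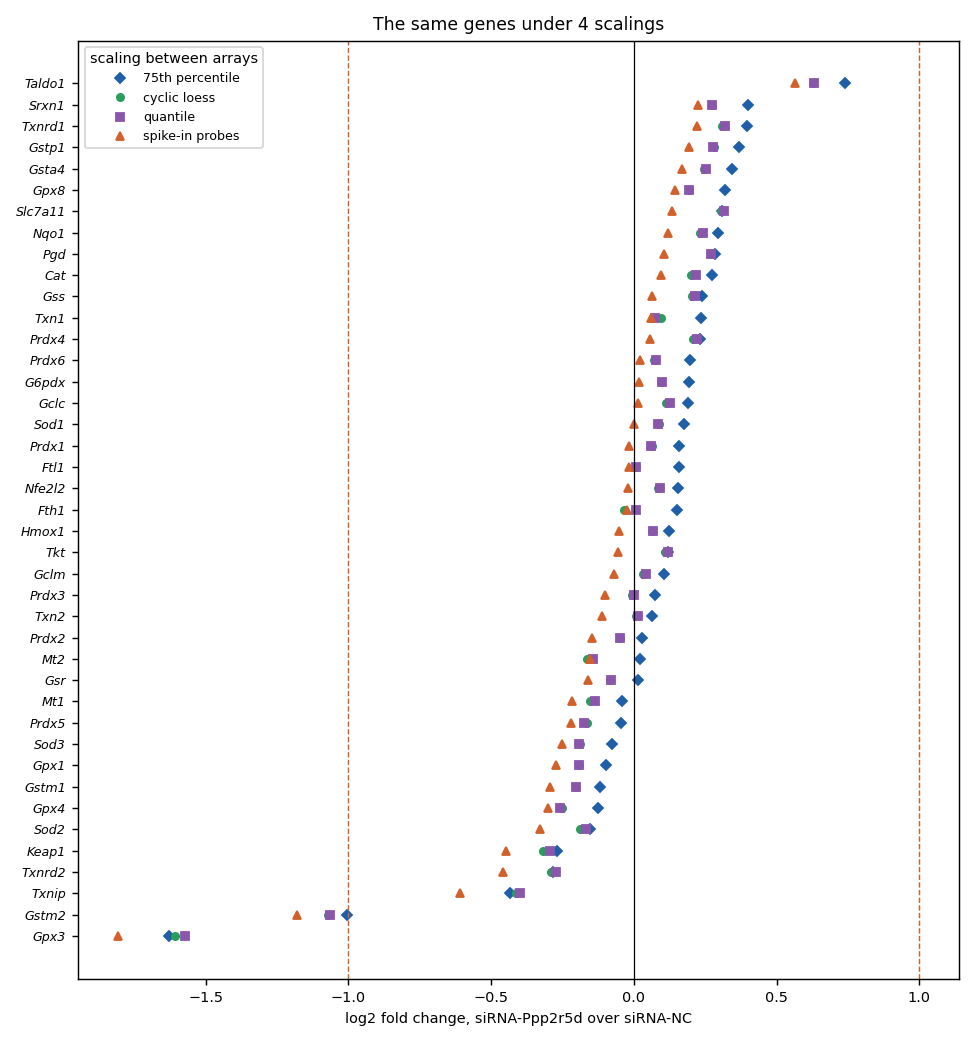
The log2 fold change of the 41 genes with a value or a bound on the x axis, each under 4 scalings between the arrays, in the order of the 75th percentile values. Spike-in scaling lies to the left of 75th percentile scaling for each gene, so that genes near 0 change sign, while *Gstm2*, *Gpx3* and *Taldo1* stay on 1 side of 0.

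Over the 7 scalings, 16 of the 41 genes were higher in the knockdown culture under each, 12 were lower under each and 13 changed sign. Of 20 genes with several measured probes, 12 had probes of 1 sign. Besides *Taldo1*, the genes that were higher under each scaling included *Srxn1*, *Txnrd1*, *Gstp1*, *Gsta4*, *Gpx8*, *Slc7a11*, *Nqo1* and *Pgd*. The genes lower under each scaling included *Keap1*, *Txnip*, *Txnrd2*, *Gpx1*, *Gpx4*, *Sod2* and *Sod3*.

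The core of the antioxidant response element was searched as TGACNNNGC on both strands of RefSeq promoters of assembly GRCm38.p6, from 250 bases before to 50 bases after a gene start. A promoter was at hand for 36 of the genes. The motif was found in 9 of these, or 25%, against 16.5% of 11789 detected genes with a promoter, 14.0% of all 27025 genes with a promoter and 12.4% of 32851 promoters. A match is a description of letters and not a binding site. The 9 matches are shown on the strand of the gene, with the motif or its reverse complement in capitals and 10 bases on either side.
*Nfe2l2*, chr2:75704885-75704913, minus strand: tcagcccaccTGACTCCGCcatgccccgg
*Gclm*, chr3:122245413-122245441, plus strand: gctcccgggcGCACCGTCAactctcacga
*Txnrd1*, chr10:82859104-82859132, plus strand: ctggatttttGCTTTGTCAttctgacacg
*Srxn1*, chr2:152105542-152105570, plus strand: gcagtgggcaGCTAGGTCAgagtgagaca
*Prdx1*, chr4:116685456-116685484, plus strand: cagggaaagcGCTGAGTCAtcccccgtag
*Sod1*, chr16:90220696-90220724, plus strand: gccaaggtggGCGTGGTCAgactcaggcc
*G6pdx*, chrX:74428919-74428947, minus strand: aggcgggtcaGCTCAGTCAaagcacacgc
*Pgd*, chr4:149166061-149166089, minus strand: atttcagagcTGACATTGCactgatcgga
*Mt2*, chr8:94172529-94172557, plus strand: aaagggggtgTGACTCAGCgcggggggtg

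The 9 genes with a match had log2 fold changes from 0.022 for *Mt2* to 0.40 for *Srxn1*, with a median of 0.17. Of these, *Nfe2l2*, *Gclm*, *Prdx1*, *Sod1* and *Mt2* turned sign with the scaling, with *Mt2* at -0.15 under spike-in scaling. *Txnrd1*, *Srxn1*, *G6pdx* and *Pgd* were positive under each scaling. The 25 measured genes with a promoter and no match had a median of 0.075. Scaling to spike-in probes or to the median of detected probes leaves the difference of these medians unchanged by construction. Whether the medians differ in the same way under the remaining scalings was not tested. *Taldo1*, *Gstm2* and *Gpx3* had no match within this window.

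Other genes of the same pathways were described from a list of 103 genes, of which 88 were measured on both arrays, 2 had a bound and 13 had neither. Their median log2 fold change was 0.065, with 51 higher and 37 lower, beside the 54.2% of all measured genes that were higher. At 1.5-fold, 3 were higher and 5 lower, 8.89% of the 90 genes with a value or a bound. *Mgst2*, a microsomal glutathione S-transferase, was the only gene past 2-fold. It had an intensity of 695 in the control culture and 261 in the knockdown culture, a log2 fold change of -1.22 that ranged from -1.40 to -1.06 over the scalings. The further transferases past 1.5-fold were also lower, while *Gsto1* at 0.41, *Gstm5* at 0.16 and *Gstp2* at 0.15 had positive values below 1.5-fold. Of the 30 measured genes in the list of other glutathione genes, 15 were higher and 15 lower. *Gstt3* went from 321 to 173, a log2 fold change of -0.70, and *Gstm6* from 154 to 88.3, a value of -0.61. *Gstt2* was dim, at 26.1 and 15.1, and its log2 fold change of -0.59 turned sign with the scaling. Among the NRF2 regulators, *Bach2*, a relative of the NRF2 competitor BACH1, went from 145 to 66.6, a log2 fold change of -0.93. The values nearest to 0 over the scalings were -0.54 for *Gstt3*, -0.28 for *Gstm6* and -0.51 for *Bach2*, all below 1.5-fold. The 3 genes at least 1.5-fold higher were *Slc40a1*, *Ggt7* and *Aldh3a1*. *Slc40a1*, the iron exporter ferroportin, went from 127 to 220, a log2 fold change of 0.98. *Ggt7*, of the gamma-glutamyltransferase family, went from 163 to 259, a value of 0.86. *Aldh3a1*, an aldehyde dehydrogenase, went from 21569 to 28875, a value of 0.61, and was below 1.5-fold after cyclic loess, at 0.49.

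**Figure D4:**
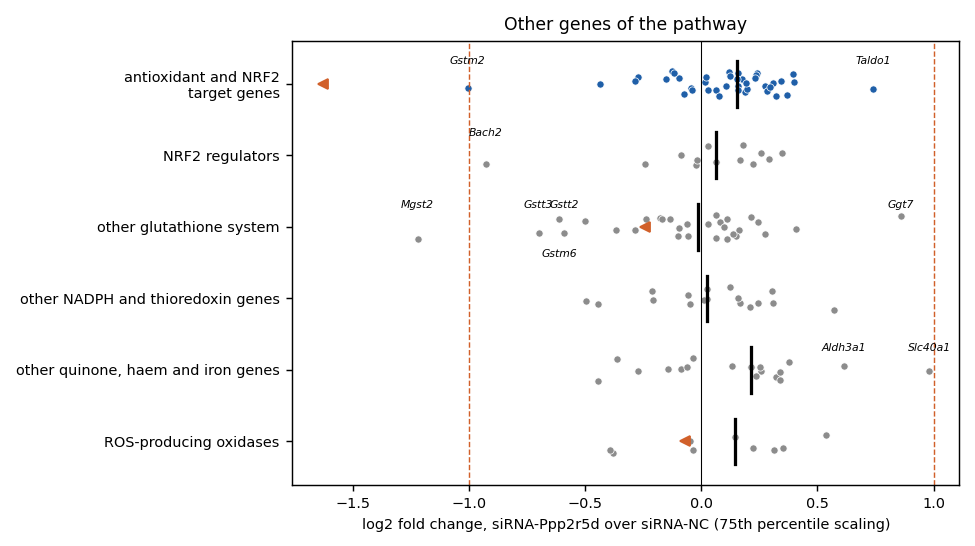
The log2 fold change on the x axis for the antioxidant genes in blue and for the 5 lists of other pathway genes in grey, after 75th percentile scaling. Each point is a gene measured on both arrays, orange triangles are bounds for genes detected in the control culture alone, black bars are medians of measured genes, and dashed lines mark 2-fold. Genes measured on both arrays are named where they differ by at least 1.5-fold, and *Mgst2* and *Gstm2* lie to the left of the line for 2-fold lower.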

How the data were processed

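RNA of the control (siRNA-NC) and knockdown (siRNA-*Ppp2r5d*) cultures was labelled with Cyanine 3 and hybridized to single-colour Agilent arrays, 1 per condition, on 1 slide and in 1 scan. The authors deposited the intensity of each spot, background-corrected within the array by Agilent Feature Extraction 10.7.1.1, and a table of log2 values for 56604 probes. The normalization of the log2 table is not given in the sources used here. The median of both columns was 5.02, and the log2 fold changes differed from those after quantile normalization of the intensities by a median of 5.61e-05.

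Control spots and outlier spots, 126 on the control array and 95 on the knockdown array, were left out. Of 59305 spots, 35544 and 35174 were well above background and 0 were saturated. The log2 intensities were averaged over the spots of a probe, and the 75th percentile of the array was subtracted. A gene was the mean over its probes well above background on both arrays. A gene well above background on 1 array had a bound. On the dim array it was set at the gene's own signal or, if higher, at the lowest well-above-background signal. That lowest signal was 14.9 for the control and 13.5 for the knockdown. Where the dim array was then the higher, the gene had neither a value nor a bound. The number of arrays limits the precision, and no test was run. Shares of genes past a fold were taken over 21674 genes with a value or a bound.

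The members, the other gene lists and the markers were chosen with earlier results of these data known. Intensities were given for members at least 1.5-fold changed, for *Nfe2l2* and *Keap1*, and for *Hmox1*, *Nqo1*, *Gclc*, *Gclm*, *Slc7a11*, *Srxn1* and *Txnrd1*, and other pathway genes were named where measured on both arrays and at least 1.5-fold changed. Alternatives were cyclic loess, quantile normalization, spike-in scaling, the median of detected probes, normexp with an offset of 50, the deposited log2 values, no filter on dim probes, no bounds, outlier spots kept, the brightest probe, and thresholds of 1.5-fold and 4-fold. Probes designed on RefSeq mRNAs alone were added after the data were seen. The gene step was tested on simulated data. Software was Python 3.11.15 (pandas 2.3.3, NumPy 2.4.6), matplotlib 3.10.9 for figures, and limma 3.58.1 under R 4.3.3.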

Additional observations from a re-analysis of the deposited data

How the results depend on the processing

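The median log2 fold change of the antioxidant genes was 0.15, and it was 0.062 after quantile normalization, 0.063 after cyclic loess, 0.064 with the authors' log2 values and -0.022 with spike-in scaling. It lay between 0.14 and 0.18 under the other 7 alternatives. The count at least 2-fold lower, 2, was 1 with the median of detected probes, with normexp and without bounds, and 0 at 4-fold. The count at least 2-fold higher, 0, was 1 at 1.5-fold. The log2 fold change of *Ppp2r5d*, -2.60, was -2.78 with spike-in scaling and -2.49 with normexp. The cause of these shifts was not tested, apart from changes that act by construction. Those are the bound, the thresholds, and the scalings to spike-in probes or to the median of detected probes, which move all genes by 1 constant. For *Gpx3*, with 1 dim probe, the value was -0.46 with normexp. No paired analysis was possible because each condition has a single array, and for the same reason no replicate could be left out.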

Other observations

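Genes for enzymes that produce reactive oxygen species were mostly dim in these cultures. Of 15 listed, 9 were measured on both arrays with a median log2 fold change of 0.15, and none passed 1.5-fold. *Cybb*, *Nox1*, *Nox3*, *Ncf1* and *Maob* had neither a value nor a bound. *Nox4*, an oxidase that releases hydrogen peroxide and was picked here after its values were seen, had mean intensities of 58.5 and 59.6. Its mean log2 fold change was 0.22, with 3 probes from -7.9e-05 to 0.62. *Maoa*, the monoamine oxidase of the outer mitochondrial membrane, also picked after its values were seen, had intensities of 1826 and 1767, with a log2 fold change of 0.15.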
